A study of Mus musculus with 8 samples.

Results

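The natriuretic peptide pathway was described by 7 genes of the 20701 gene symbols in the count table, taken by name as the members of the pathway. They are the peptide genes Nppa (atrial natriuretic peptide), Nppb (brain natriuretic peptide) and Nppc (C-type natriuretic peptide), the receptor genes Npr1, Npr2 and Npr3, and Corin, which encodes the protease that cuts the atrial propeptide. Of the 7 genes, 6 had enough counts to be tested, and Nppc did not. RNA was sequenced from the outflow tract and right ventricle (OFT/RV), dissected from single C57BL/6 mouse embryos at E10.5. The study asked how reduced expression of Isl1, a LIM-homeodomain transcription factor gene of second heart field progenitors, alters this tissue. The 4 control embryos (CTRL) had the genotype wild type. The 4 mutant embryos (Isl1_hypo) had the genotype Isl1 hypomorph, with the alleles written Isl1-f;neo/f;neo. The allele is carried by every cell of the embryo, so the mutant tissue is not a model of Isl1 loss in 1 cell type.

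Natriuretic peptides are made as propeptides and cut to short hormones that share a ring closed by a disulphide bond between a pair of cysteines. The atrial and brain peptides bind the receptor encoded by Npr1 and the C-type peptide binds that encoded by Npr2, and both receptors are guanylyl cyclases that make cyclic GMP. The receptor encoded by Npr3 has no cyclase domain and removes peptide from the surroundings of the cell. In the embryonic heart, Nppa is a marker of working chamber myocardium and is low in the outflow tract and atrioventricular canal, while Npr3 is a marker of endocardium.

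The stretches that encode the ring are shown for Nppb and Nppc because the ring is what the peptides have in common. Each line gives the 51 bases, 5′ to 3′, from the first to the last cysteine codon of the ring in the GENCODE transcript, and capitals mark those 2 codons.
Nppb: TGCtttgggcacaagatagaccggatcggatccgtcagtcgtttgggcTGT
Nppc: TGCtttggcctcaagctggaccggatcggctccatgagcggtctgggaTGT
The ring spans 17 codons in both genes. It covers codons 99 to 115 of 121 in Nppb and codons 110 to 126 of 126 in Nppc, where the reading frame ends with the ring. Nppb and Nppc were identical at 40 of the 51 bases (78.4%).

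Nppa and Nppb lie side by side on chromosome 4, on the same strand, with 13.5 kb between the end of Nppb (mm9 chr4:147359897-147361314) and the start of Nppa (mm9 chr4:147374831-147376188). The 250 bases before each start are shown because these are the 2 members with the highest levels. They are taken from RefSeq (GRCm38.p6, forward strand, chr4:148000472-148000721 for Nppa and chr4:147985650-147985899 for Nppb). Capitals mark the letters of known cardiac motifs and of TATAAA, the letters of a TATA box.
Nppa: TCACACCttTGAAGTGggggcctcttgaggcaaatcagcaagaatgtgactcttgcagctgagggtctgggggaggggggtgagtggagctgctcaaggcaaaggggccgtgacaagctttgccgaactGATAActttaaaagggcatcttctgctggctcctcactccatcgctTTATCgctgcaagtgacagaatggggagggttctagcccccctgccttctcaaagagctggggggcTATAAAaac
Nppb: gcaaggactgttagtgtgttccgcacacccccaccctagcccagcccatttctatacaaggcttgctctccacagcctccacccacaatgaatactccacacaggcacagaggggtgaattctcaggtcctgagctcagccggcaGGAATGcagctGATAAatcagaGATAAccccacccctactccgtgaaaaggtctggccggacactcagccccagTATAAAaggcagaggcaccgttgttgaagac
Each motif was searched on both strands, and no matches overlapped. The Nppa window held the T-box element TCACACC, from 250 to 244 bases before the start, and the NK-homeodomain element TNAAGTG, from 241 to 235. It also held the GATA element GATAA on each strand, and TATAAA from 9 to 4 bases before the start. The Nppb window held GATAA at 2 places on the gene's strand, the M-CAT element GGAATG, and TATAAA from 31 to 26 bases before the start. TATAAA thus lay closer to the start in Nppa. Over 32851 RefSeq promoters of the same window, TCACACC was found in 3.33%, TNAAGTG in 10.1%, GATAA in 22.6%, GGAATG in 12.6% and TATAAA in 12.4%. Nppc held TATAAA from 29 to 24 bases before its start, and none of these letters was found before Npr1, Npr2, Npr3 or Corin. CTAATG, a homeodomain element found in 6.36% of promoters, was in none of the 7 windows. These matches describe letters and were not tested as binding sites.

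The libraries held 29748458 to 46678973 counts in CTRL and 18422245 to 33050298 in Isl1_hypo, so the mutant libraries were shallower as a group. Isl1 itself, which checks the labels, was at 29.6, 61.5, 46.2 and 51.3 counts per 1e6 counts (CPM) in CTRL and at 12.7, 6.86, 7.71 and 11.4 CPM in Isl1_hypo, a log2 fold change of -2.29 (SE 0.256, edgeR quasi-likelihood test, adjusted p = 0.00770). Here and below, CPM is scaled to library size by the TMM method, and adjusted p-values cover all 13769 genes tested. Summed over 9 cardiomyocyte genes, the levels were 39175 to 47549 CPM in CTRL and 40014 to 48068 CPM in Isl1_hypo. Actc1, cardiac actin, makes up much of this sum (21021 ± 2396 and 23654 ± 2323 CPM, SD, n = 4). Of the 9 genes, 3 were higher and 6 lower, none past the adjusted test. Against 11.9% of all genes at an unadjusted p under 0.05, 3 of the 9 were lower. These were Ttn, Myh7 and Myh6, with log2 fold changes of -0.90, -0.49 and -0.31 (edgeR adjusted p = 0.173, 0.165 and 0.391), and the groups did not overlap for Ttn and Myh7. Isl1_hypo replicate 1 stood apart in epithelial genes, with Cldn6, a tight junction gene, at 38.5 CPM and Cdh1, the epithelial cadherin gene, at 15.3 CPM. In CTRL, Cldn6 was at 0.199 CPM or less. Isl1_hypo replicate 3 had the fewest genes detected, 14305, against 14935 to 15396 in the other libraries.

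Among the 6 tested natriuretic genes, Nppa was higher in Isl1_hypo at an adjusted p under 0.05, and it was the only member called. Over all genes the same threshold called 0.269% (37 genes, 20 higher and 17 lower). At an unadjusted p under 0.05, Nppa and Nppb were higher and Npr1 and Corin were lower, 4 of 6 members against 11.9% of all genes. This count was 2 without CTRL replicate 1, where Nppb and Corin no longer reached that level, and 3 or 4 without any other single library. The groups did not overlap in CPM for Nppa, Npr1 and Corin, 3 of 6 members against 8.5% of all genes. The median log2 fold change was -0.05 over the 6 members and 0.01 over all genes tested.

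**Figure D1:**
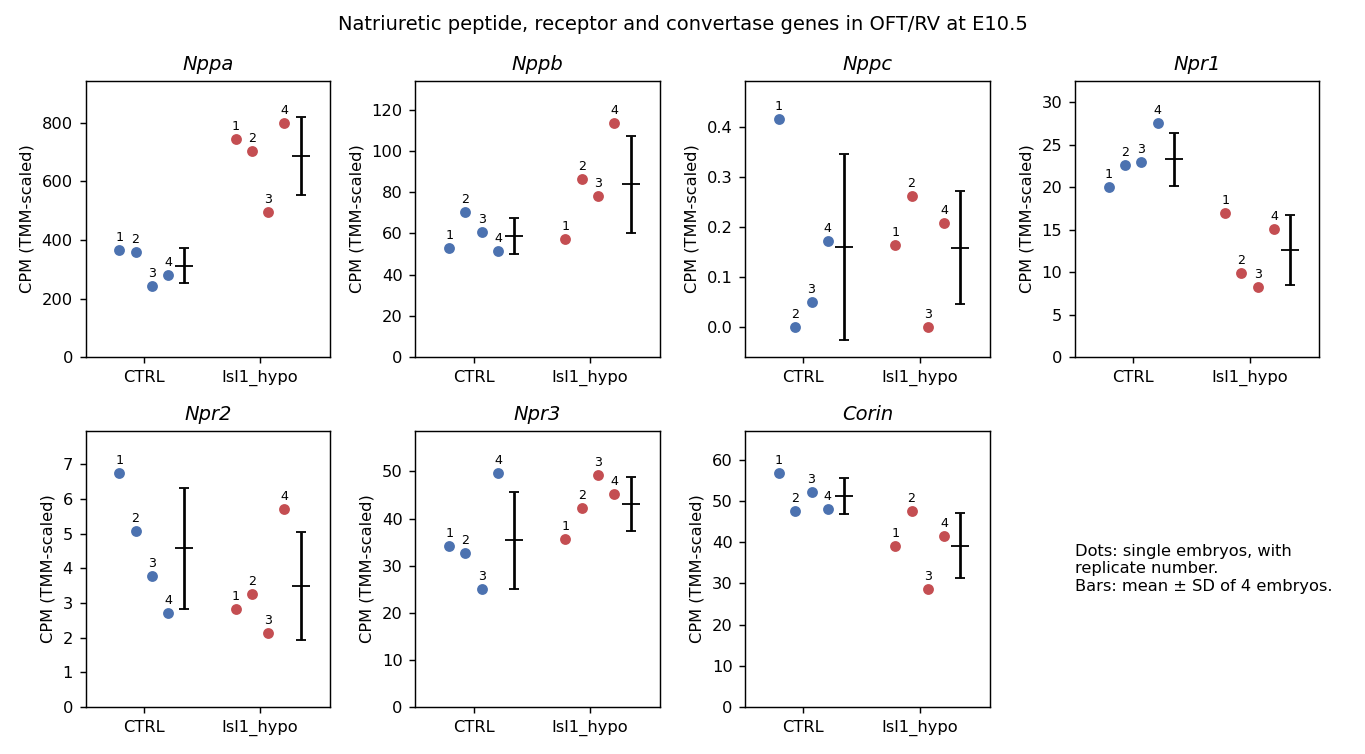
Level of each natriuretic gene in CPM (vertical axes, linear, scaled by TMM) in the 4 CTRL (blue) and 4 Isl1_hypo (red) embryos. Numbers are replicates and bars are mean ± SD. The mutant dots for Nppa lie at 496 to 799 CPM, above the control dots at 244 to 366, and those for Npr1 lie at 8.28 to 17.0 CPM, below the control dots at 20.1 to 27.6.

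Nppa encodes the atrial peptide, the main natriuretic peptide of embryonic chamber muscle. It was at 366, 359, 244 and 282 CPM in CTRL and at 745, 705, 496 and 799 CPM in Isl1_hypo. Even the lowest mutant embryo, replicate 3, was above the highest control. The means were 313 ± 59.5 CPM in CTRL and 686 ± 133 CPM in Isl1_hypo (SD, n = 4), a 2.19-fold difference of means. The log2 fold change was 1.13 (SE 0.171, 95% interval 0.76 to 1.51, edgeR adjusted p = 0.0303). The raw counts behind these values were 9842 to 14595 in CTRL and 13720 to 23099 in Isl1_hypo. The adjusted p stayed under 0.05 without Isl1_hypo replicate 3. It was 0.0547 to 0.104 without any other single library, at log2 fold changes of 1.03 to 1.21. Leaving out both mutant libraries that stood apart, replicates 1 and 3, gave a log2 fold change of 1.27 (edgeR adjusted p = 0.0139). An antisense transcript, Gm13054, shares 532 exonic bases with Nppa, and reads of the pair cannot be told apart because strand was not used in counting.

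Nppb encodes the brain peptide, which in the embryo is also made by ventricular muscle. It was at 52.9, 70.3, 60.6 and 51.5 CPM in CTRL and at 57.1, 86.3, 78.0 and 113 CPM in Isl1_hypo. The groups overlapped through Isl1_hypo replicate 1, and the other 3 mutant embryos were above every control. The means were 58.8 ± 8.61 CPM and 83.7 ± 23.3 CPM (SD, n = 4). The log2 fold change was 0.51 (SE 0.188, 95% interval 0.10 to 0.92), and it did not pass the test over all genes (edgeR adjusted p = 0.314). The log2 fold change was 0.33 without Isl1_hypo replicate 4, the highest library, and 0.76 without Isl1_hypo replicates 1 and 3.

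The transcript of Nppc was close to absent from this tissue. It had 13, 0, 2 and 8 counts in CTRL and 3, 7, 0 and 6 counts in Isl1_hypo, which is at most 0.416 CPM. A count of 0 allows a level of up to 0.0738 CPM in CTRL replicate 2 and 0.0948 CPM in Isl1_hypo replicate 3, at 3 counts per library on the same scale, a limit that covers counting error only. No fold change is given at this depth.

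Corin encodes the transmembrane serine protease of cardiac muscle that releases the active atrial peptide. It was at 56.9, 47.6, 52.2 and 48.1 CPM in CTRL and at 39.0, 47.5, 28.7 and 41.6 CPM in Isl1_hypo. The groups were separated by less than 0.1 CPM, between CTRL replicate 2 and Isl1_hypo replicate 2. The means were 51.2 ± 4.33 and 39.2 ± 7.84 CPM (SD, n = 4). The log2 fold change was -0.38 (SE 0.155, 95% interval -0.72 to -0.05, edgeR adjusted p = 0.351). The difference did not pass the test over all genes. Without Isl1_hypo replicates 1 and 3 the log2 fold change was -0.20 (edgeR adjusted p = 0.705).

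Npr1 encodes the cyclase receptor of the atrial and brain peptides. It was at 20.1, 22.6, 22.9 and 27.6 CPM in CTRL and at 17.0, 9.97, 8.28 and 15.0 CPM in Isl1_hypo. All 4 mutant embryos were below the lowest control. The means were 23.3 ± 3.11 and 12.6 ± 4.12 CPM (SD, n = 4), with a log2 fold change of -0.89 (SE 0.226, 95% interval -1.39 to -0.40). The edgeR test did not call it (adjusted p = 0.167), while DESeq2 on the same counts did (adjusted p = 0.0146), in a fit that called 2.32% of all genes. An antisense transcript, Gm16048, shares 559 exonic bases with Npr1.

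Npr2, the cyclase receptor gene of the C-type peptide, was at 6.75, 5.07, 3.77 and 2.71 CPM in CTRL and at 2.82, 3.26, 2.12 and 5.71 CPM in Isl1_hypo. The groups overlapped over most of their range. The log2 fold change was -0.39 (SE 0.379), and its 95% interval of -1.22 to 0.44 leaves room for a difference in either direction (edgeR adjusted p = 0.709). It was -0.15 without CTRL replicate 1, -0.21 without Isl1_hypo replicate 3, -0.74 without Isl1_hypo replicate 4 and -0.03 without Isl1_hypo replicates 1 and 3. Npr2 shares 266 exonic bases with the antisense transcript Gm12473.

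Npr3, the clearance receptor gene, was at 34.2, 32.6, 25.1 and 49.7 CPM in CTRL and at 35.7, 42.2, 49.2 and 45.2 CPM in Isl1_hypo. The highest library of all was a control, replicate 4, and the other 3 controls were below every mutant. The means were 35.4 ± 10.3 and 43.1 ± 5.70 CPM (SD, n = 4). The log2 fold change was 0.28 (SE 0.194, 95% interval -0.14 to 0.71, edgeR adjusted p = 0.582). It was 0.15 without CTRL replicate 3 and 0.49 without CTRL replicate 4, with adjusted p of 0.825 and 0.369 by the same edgeR test.

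Levels were compared between members only per transcript length, in reads per kilobase and library size (RPKM, length-scaled CPM) computed here from the same TMM-scaled sizes. In CTRL, Nppa was highest at 366 ± 69.6 RPKM, followed by Nppb at 75.8 ± 11.1 and Corin at 10.6 ± 0.895 (SD, n = 4). Npr1 at 5.76 ± 0.770 RPKM and Npr3 at 5.12 ± 1.49 RPKM came next and overlapped. Npr2 was at 1.26 ± 0.479 RPKM and Nppc at 0.153 ± 0.179. In Isl1_hypo the first 3 genes kept their order, with Nppa at 803 ± 155, Nppb at 108 ± 30.1 and Corin at 8.11 ± 1.62 RPKM. Npr3 at 6.23 ± 0.824 RPKM was then above Npr1 at 3.11 ± 1.02, and these 2 receptors did not overlap, whereas Corin and Npr3 did.

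**Figure D2:**
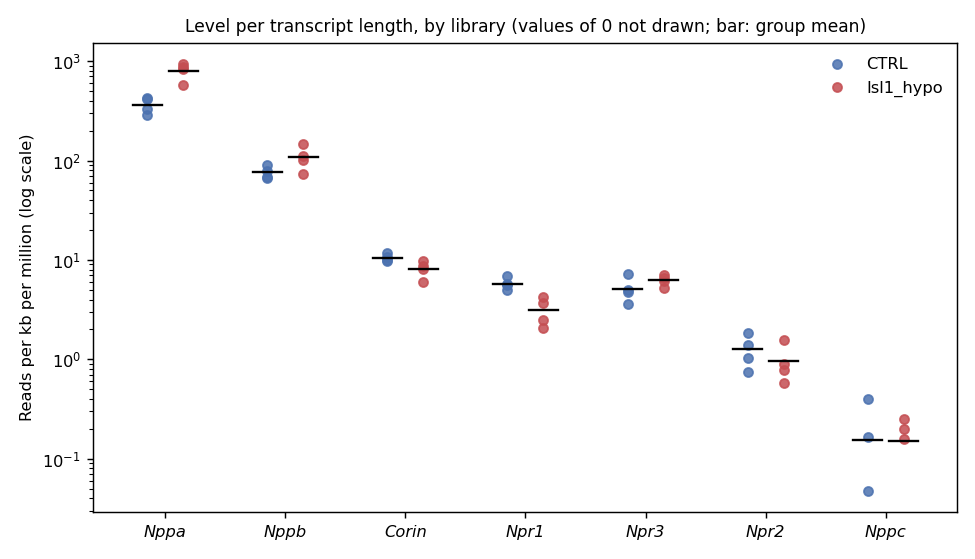
Level per transcript length in RPKM (vertical axis, log scale) for each gene, in the order of the CTRL means, with CTRL libraries in blue, Isl1_hypo libraries in red and bars at the group means. Libraries at 0 for Nppc are not drawn. Control means run from 366 RPKM for Nppa to 0.153 RPKM for Nppc.

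Ratios of counts within a library do not depend on how libraries are scaled, and 5 were compared by exact 2-sided permutation tests over 70 assignments, whose smallest p is 0.0286. Npr3 to Npr1 was 1.70, 1.45, 1.10 and 1.80 in CTRL and 2.10, 4.23, 5.95 and 3.01 in Isl1_hypo. Every mutant ratio was above every control ratio. The log2 ratio was higher by 1.26 in Isl1_hypo, or 2.39-fold (exact permutation p = 0.0286, adjusted over the 5 ratios 0.0714). Without any 1 control the exact permutation p was 0.0571, at log2 differences of 1.11 to 1.35. Nppa to Nppb was 6.91, 5.11, 4.03 and 5.47 in CTRL and 13.1, 8.17, 6.36 and 7.04 in Isl1_hypo. The groups overlapped between CTRL replicate 1 and Isl1_hypo replicate 3, and the log2 ratio was higher by 0.65, or 1.57-fold (exact permutation p = 0.0571, adjusted p = 0.0952).

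Set against the summed counts of the 9 cardiomyocyte genes, Nppa was 2.24-fold higher in Isl1_hypo, a log2 difference of 1.16 (exact permutation p = 0.0286, adjusted p = 0.0714). This sum follows Actc1, and the genes within it differed in direction, as given above. Npr3 to 8 endocardial and endothelial genes differed by 0.55 on the log2 scale (exact permutation p = 0.143, adjusted p = 0.179), and Npr3 to Npr2 by 0.73 (exact permutation p = 0.229, adjusted p = 0.229). The difference of Npr3 to Npr2 was 1.13 without CTRL replicate 4, 0.46 without Isl1_hypo replicate 3 and 0.35 without Isl1_hypo replicates 1 and 3. None of the 5 ratios passed the adjustment, which at this number of embryos can be passed only if 3 of them reach the smallest p. A further 4 ratios were chosen after seeing the data. Against 12 genes of chamber myocardium, Nppa was 1.84-fold higher (log2 difference 0.88, exact permutation p = 0.0857, adjusted over all 9 ratios 0.110). Npr1 to the endocardial and endothelial genes was lower in Isl1_hypo by 0.71 on the log2 scale, and Corin to the cardiomyocyte genes by 0.37. Nppb to the cardiomyocyte genes was higher by 0.51. Each of these 3 had an exact permutation p of 0.0571 and an adjusted p of 0.0857.

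**Figure D3:**
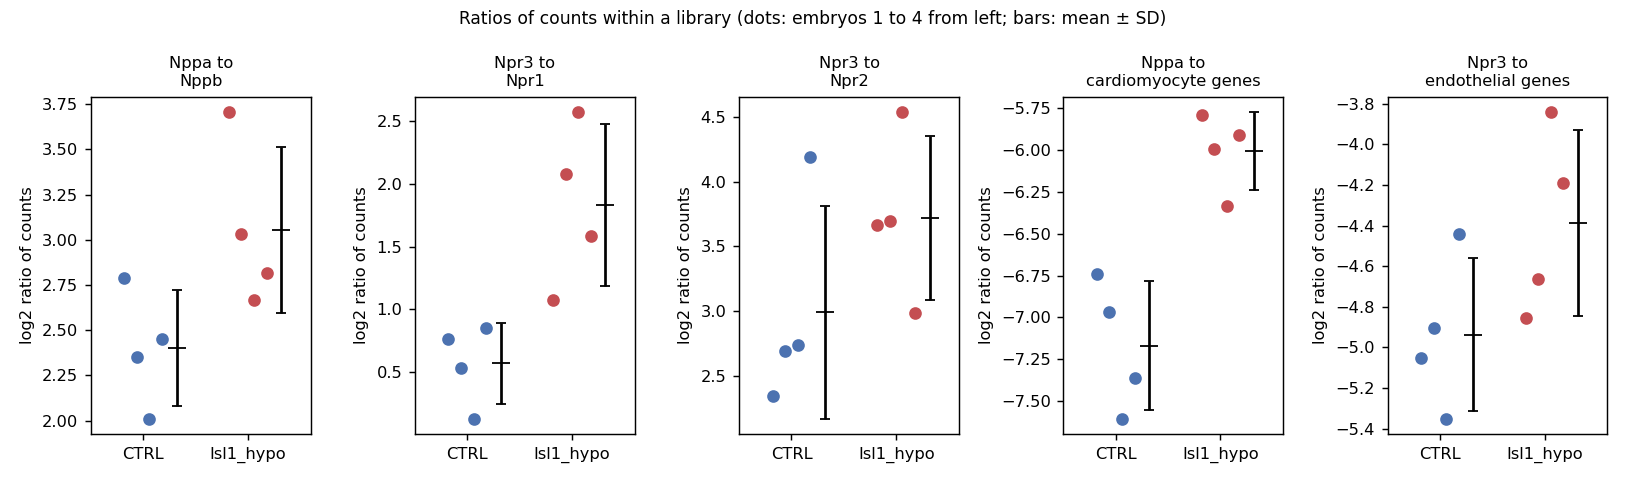
Log2 ratios of counts within each library (vertical axes) for CTRL (blue) and Isl1_hypo (red), with bars at mean ± SD of 4 embryos. The ratios of Npr3 to Npr1 and of Nppa to cardiomyocyte genes do not overlap between the groups and differ by 1.26 and 1.16, and the other 3 ratios overlap.

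The genes that process or degrade the peptides had log2 fold changes of both signs. Of 8 such genes, 7 were tested, 4 were higher and 3 lower, and none passed the adjusted test. At an unadjusted p under 0.05, 3 were higher and 2 lower, against 11.9% of all genes. The median log2 fold change was 0.01. Furin, a proprotein convertase gene, was at 75.9 ± 17.8 CPM in CTRL and 53.1 ± 1.67 CPM in Isl1_hypo (SD, n = 4, log2 fold change -0.51, edgeR adjusted p = 0.216). Ece1, the endothelin-converting enzyme gene, was at 338 ± 44.9 and 249 ± 23.1 CPM (log2 fold change -0.44, edgeR adjusted p = 0.182). Mme, which encodes neprilysin, the main peptidase that degrades natriuretic peptides, was at 25.2 ± 5.49 and 39.2 ± 5.52 CPM (log2 fold change 0.64, edgeR adjusted p = 0.189). For each of these 3 genes the groups did not overlap, as for 8.5% of all genes. Pcsk6 and Dpp4 had log2 fold changes of 0.34 and 0.77 (edgeR adjusted p = 0.412 and 0.403). Ostn, whose product is a ligand of the clearance receptor, had at most 9 counts in a library and was not tested.

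Of 16 genes of cyclic GMP signalling, 15 were tested, and 1 of them was higher past the adjusted test (0.269% of all genes). Gucy1a3, a subunit of the soluble guanylyl cyclase that answers to nitric oxide, was at 70.9 ± 15.5 CPM in CTRL and 131 ± 13.0 CPM in Isl1_hypo (SD, n = 4), without overlap. Its log2 fold change was 0.89 (SE 0.151, edgeR adjusted p = 0.0406), and its adjusted p was over 0.05 without any 1 of 6 libraries, namely CTRL replicates 1, 2 and 3 and Isl1_hypo replicates 1, 2 and 4 (0.0687 to 0.161). By the same edgeR test, the adjusted p was 0.111 with the replicate number as a block and 0.116 without Isl1_hypo replicates 1 and 3. Its partner subunit Gucy1b3 was at 52.8 ± 4.09 and 57.4 ± 8.23 CPM (log2 fold change 0.12, edgeR adjusted p = 0.742). Pln, phospholamban, a target of the cyclic GMP kinase in the sarcoplasmic reticulum, was at 839 ± 79.8 and 1143 ± 159 CPM without overlap (log2 fold change 0.45, edgeR adjusted p = 0.198). Pde9a, which encodes a phosphodiesterase selective for cyclic GMP, was at 6.19 ± 1.42 and 3.33 ± 0.711 CPM without overlap (log2 fold change -0.90, edgeR adjusted p = 0.230). Pde5a had a log2 fold change of -0.45 and Prkg1, the type I cyclic GMP kinase gene, of 0.20 (edgeR adjusted p = 0.475 and 0.636). Over the 15 genes, 7 were higher and 8 lower, with a median log2 fold change of -0.13. At an unadjusted p under 0.05, 2 were higher and 1 lower, against 11.9% of all genes. The groups did not overlap for 3 of the 15, against 8.5% of all genes.

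**Figure D4:**
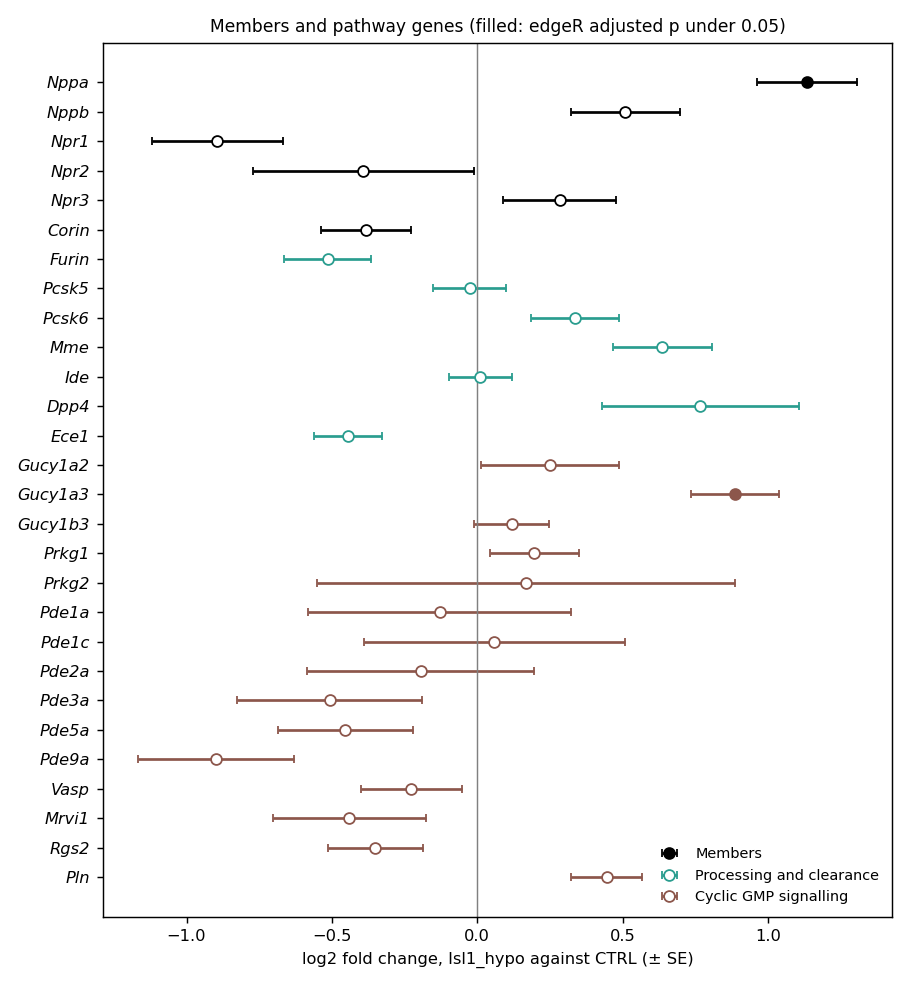
Log2 fold change of Isl1_hypo against CTRL (horizontal axis, ± SE from the edgeR fit) for the 6 tested natriuretic genes (black), 7 genes of peptide processing and clearance (green) and 15 genes of cyclic GMP signalling (brown). Filled dots mark adjusted p under 0.05, which are Nppa at 1.13 and Gucy1a3 at 0.89.

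The transcription factors and cofactors known to act on Nppa and Nppb were 15 genes, all tested, and none passed the adjusted test. There were 8 higher and 7 lower, with a median log2 fold change of 0.01. Nkx2-5, whose product binds the NK-homeodomain element shown above, was at 208 ± 13.0 CPM in CTRL and 229 ± 51.8 CPM in Isl1_hypo (SD, n = 4, log2 fold change 0.14, edgeR adjusted p = 0.761). Tbx5, an activator of Nppa, had a log2 fold change of 0.14 (edgeR adjusted p = 0.736). The repressor genes Tbx2 and Tbx3 had log2 fold changes of -0.28 and 0.34 (edgeR adjusted p = 0.687 and 0.775). Against 11.9% of all genes at an unadjusted p under 0.05, 1 of the 15 was higher and 2 were lower. They were Hopx, which encodes a homeodomain-only cofactor (157 ± 29.9 and 249 ± 32.1 CPM, log2 fold change 0.66, edgeR adjusted p = 0.106), Tbx20 (log2 fold change -0.44, edgeR adjusted p = 0.283) and Mef2c (log2 fold change -0.23, edgeR adjusted p = 0.352).

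Genes of chamber myocardium, where Nppa is known to be expressed, were 12, all tested, and none passed the adjusted test. There were 10 higher and 2 lower, with 5 higher and 1 lower at an unadjusted p under 0.05 (11.9% of all genes), and a median log2 fold change of 0.47. Smpx, a small muscle protein gene, was at 417 ± 36.9 and 640 ± 87.1 CPM (log2 fold change 0.62, edgeR adjusted p = 0.0619). Irx2, an Iroquois homeobox gene, was at 2.94 ± 1.31 and 9.42 ± 2.09 CPM (log2 fold change 1.68, edgeR adjusted p = 0.0657). Gja5, the connexin gene often studied with Nppa, had a log2 fold change of 0.24 (edgeR adjusted p = 0.631). The chamber genes summed to 2878 to 3038 CPM in CTRL and 2820 to 4480 CPM in Isl1_hypo.

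Around Nppa and Nppb, 8 other tested genes with a start within 150 kb of that of Nppa were described. Of these, 7 had a log2 fold change below 0 and 1 above it, from -0.41 (Plod1) to 0.16 (Mad2l2), and none passed the adjusted test. Plod1, a collagen lysyl hydroxylase gene 64.0 kb away, had the lowest p of the 8 (edgeR adjusted p = 0.264). Clcn6, a chloride transporter gene whose start lies 38.1 kb from that of Nppa, had a log2 fold change of -0.26 (edgeR adjusted p = 0.649).

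**Figure D5:**
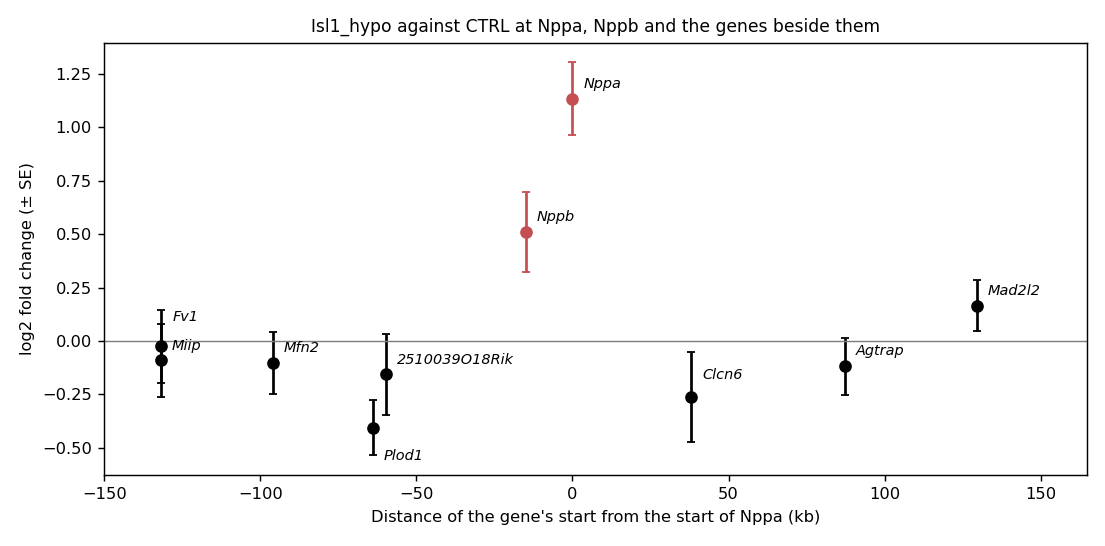
Log2 fold change of Isl1_hypo against CTRL (vertical axis, ± SE from the edgeR fit) for Nppa, Nppb and 8 genes with a start within 150 kb of the start of Nppa, by distance in kb (horizontal axis). Nppa at 1.13 and Nppb at 0.51 (red) lie above the other 8 genes (black), which range from -0.41 to 0.16.

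In bulk tissue, fewer cells of a type and less RNA per cell cannot be told apart, and several cell type lists differed between the groups alongside the members. Outflow tract genes summed to 606 to 703 CPM in CTRL and 379 to 449 CPM in Isl1_hypo. Of 8 genes, 7 were lower and 1 higher, 5 lower at an unadjusted p under 0.05 (11.9% of all genes). Isl1, Bmp4 and Fgf10, the last 2 being ligand genes of the second heart field, were lower past the adjusted test (0.269% of all genes). Their log2 fold changes were -2.29, -0.94 and -0.93 (edgeR adjusted p = 0.00770, 0.0172 and 0.0310). Isl1 is the gene that the mutant allele lowers, so its fall was set by the design. It is part of this sum and of these counts (47.2 ± 13.3 and 9.67 ± 2.83 CPM, SD, n = 4). Fgf10 had an adjusted p over 0.05 without any 1 library other than Isl1_hypo replicate 3 (0.0532 to 0.105), and Bmp4 without CTRL replicate 2 or 3 (0.0626 and 0.0733). Of 6 atrial genes, 5 were higher and 1 lower, 2 higher and 1 lower at an unadjusted p under 0.05, with sums of 4974 to 6788 and 5188 to 7978 CPM. Myl7 makes up nearly all of this sum (5947 ± 778 and 6428 ± 1388 CPM, SD, n = 4), which says little about the rest of the list. Nr2f2, an atrial and venous transcription factor gene, was at 13.1 ± 3.58 CPM in CTRL and 25.7 ± 8.48 CPM in Isl1_hypo (log2 fold change 0.97, edgeR adjusted p = 0.173), and Stard10 was at 3.86 ± 1.02 and 7.90 ± 2.53 CPM (log2 fold change 1.03, edgeR adjusted p = 0.205), both without overlap. The one that fell was Sln, sarcolipin, a defining marker of atrial muscle (5.85 ± 1.20 and 1.20 ± 0.270 CPM, log2 fold change -2.28, edgeR adjusted p = 0.0172). Its adjusted p was over 0.05 without CTRL replicate 1 or 3 or without Isl1_hypo replicate 4 (0.0597 to 0.0929).

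Each count at an unadjusted p under 0.05 below stands beside a share of 11.9% over all genes. Of the 8 endocardial and endothelial genes, 6 were lower and 2 higher, none past the adjusted test and 2 lower at an unadjusted p under 0.05, with sums of 977 to 1134 CPM in CTRL and 705 to 1071 CPM in Isl1_hypo. These 2 were Pecam1 and Cdh5, endothelial adhesion genes, with log2 fold changes of -0.58 and -0.54 (edgeR adjusted p = 0.170 and 0.241), both without overlap between the groups. The 2 higher genes were Nfatc1 and Emcn, at 0.36 and 0.23 (edgeR adjusted p = 0.477 and 0.475). The rest were Tek, Kdr, Eng and Tie1, at -0.18, -0.20, -0.19 and -0.55 (edgeR adjusted p = 0.617, 0.567, 0.735 and 0.521). Cushion mesenchyme genes summed to 1670 to 2692 and 1183 to 1762 CPM, with 5 of 6 lower, 3 of them at an unadjusted p under 0.05. All 5 epicardial genes were higher, 4 of them at an unadjusted p under 0.05, and summed to 48.3 to 303 and 366 to 586 CPM. All 9 erythroid genes were higher, 8 of them at an unadjusted p under 0.05, and summed to 2023 to 11906 CPM in CTRL and 11888 to 25602 CPM in Isl1_hypo. Hba-a1 and Hba-a2 among them have the same counts and are near-identical copies. Of 6 epithelial genes, 3 were tested and all were higher at an unadjusted p under 0.05, and the list summed to 67.9 to 115 and 124 to 302 CPM. Left ventricular genes summed to 482 to 550 and 281 to 490 CPM, with 1 of 3 higher and 2 lower, of which Hand1 had an unadjusted p under 0.05 (log2 fold change -1.04, edgeR adjusted p = 0.277). Cited1 makes up most of the left ventricular sum (370 ± 33.0 and 310 ± 103 CPM, SD, n = 4). Neural genes (2 of 5 tested, both lower, 1 at an unadjusted p under 0.05) were at 48.1 to 73.1 and 26.6 to 49.5 CPM. Macrophage genes (5 tested, all lower, none past the test) were at 7.26 to 15.0 and 2.66 to 11.8 CPM. The part of these lists in the differences of Nppa, Npr1 and the other members was not tested.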

How the data were processed

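PolyA RNA of 8 OFT/RV samples was sequenced on BGISEQ-500. The authors aligned reads with STAR to mm9 and deposited raw exon counts for each RefSeq transcript, made with HOMER without regard to strand, so antisense reads are added to a gene's own. Transcript length was deposited beside them. Columns with the authors' RPKM and their DESeq2 comparison (fold changes, p-values) were also deposited and were not used here. Tool versions of these steps are not given in the sources used here. Columns named CTR and MUT with a number were matched to the CTRL and Isl1_hypo samples of that number.

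For each of 20701 symbols in 31507 transcripts, the transcript with the highest mean count was kept. After filterByExpr, 13769 genes were tested with the quasi-likelihood test of edgeR 4.0.16 (R 4.3.3, TMM, no covariates, Benjamini-Hochberg over all genes), at a threshold of 0.05. The SE is the log2 fold change over the square root of F. Spread between embryos, beyond counting error, was 26.4% (common dispersion 0.0699). Log2 CPM used a prior count of 2. Alternatives were DESeq2 1.42.0, limma-voom (limma 3.58.1), other size factors, filters, transcripts, the replicate block and left-out libraries. Tests were run on simulated data first. Replicates are single embryos. Ring stretches come from GENCODE vM1 on NCBIM37 (mm9).

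The text names the members, any gene of the lists, genes within 150 kb of Nppa, and the 3 genes most like each member. A few items these rules would name are not reported here. Members and lists were chosen with earlier results of these data known.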

Additional observations from a re-analysis of the deposited data

How the results depend on the processing

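Of 366 alternative values, 317 were labelled unchanged, and no tested value turned its direction. Values with an adjusted p had to keep their side of the threshold. List medians had to move by less than the median SE of the list's single genes, which is not the error of a median. Ratios without an adjusted p had to move by less than the SD within groups. The number of members called had to stay at 1. Some list medians near 0 changed sign. Every log2 fold change of the 6 tested members kept its sign in its 18 alternatives. Nppa had log2 fold changes of 1.03 to 1.26 with 1 library left out, and 1.13 with the replicate number as a block (edgeR adjusted p = 0.0510). Isl1 was at -2.29 with the replicate block (edgeR adjusted p = 0.0722). Npr1 was at -0.89 under DESeq2 (adjusted p = 0.0146), against an adjusted p of up to 0.352 over its alternatives. The number of members called was 2 under DESeq2, 0 with the replicate block and 0 to 1 with 1 library left out. Over all genes the calls numbered 37, against 319 under DESeq2, 130 under limma-voom with sample weights, 0 with the replicate block, where 4 members had an unadjusted p under 0.05, and 4 to 48 with 1 library left out. The cause of these differences was not tested, beyond fewer samples when a library is left out. No pairing of the embryos by replicate number was seen. Correlations of same-numbered deviations over all tested genes were 0.0189, -0.0209, 0.0130 and 0.0219, and 0 of the same-numbered pairs were best matches of each other. This check cannot decide whether same-numbered embryos shared an origin or a preparation. With the block the other calls of members did not change. The median of the processing genes ranged from -0.04 to 0.08, that of the cyclic GMP genes from -0.35 to 0.03 and that of the regulators from -0.13 to 0.07, so these medians have no stable sign, while that of the chamber genes was 0.39 to 0.57. With 4 against 2 embryos, or with paired signs over 4 embryos, the smallest exact permutation p is 0.0667 or 0.125, so those ratio tests say nothing about stability, and in the count above those ratios were judged by their size alone. Depth limits Nppc, where 13 counts were the most in any library.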

Other observations

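For each member with a mean of at least 10 CPM, the genes whose log2 CPM was most like its own over the 8 libraries were listed among 9469 genes, as a description. The libraries fall into the 2 groups and each library's points share its depth and scaling, so the correlation of deviations from the group means is given beside the pooled one. Nppa was most like Epha4, an Eph receptor gene (Pearson r 0.974 pooled, 0.835 within groups), Phgdh (0.973 and 0.828) and Ak3 (0.957 and 0.846). Epha4 also rose in Isl1_hypo (log2 fold change 1.40, edgeR adjusted p = 0.0172), but its adjusted p was over 0.05 without CTRL replicate 1, 2 or 3 or Isl1_hypo replicate 2 or 4 (0.0516 to 0.0948).

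Npr1 was most like Actg2, a smooth muscle actin gene (0.974 pooled, 0.931 within groups), Aff1 (0.960 and 0.872) and Col9a1, a collagen gene (0.960 and 0.868). Corin was most like Aspm, a mitotic spindle gene (0.985 and 0.969), Lrrc8c (0.982 and 0.974) and Itga5, an integrin gene (0.980 and 0.994). Npr3 was most like Cox15 (0.933 and 0.917), Ugcg (0.929 and 0.905) and Kctd12 (0.921 and 0.913). Nppb was most like Mettl18 (0.956 and 0.929), Mrps22 (0.948 and 0.968) and Wdsub1 (0.944 and 0.972). Nppa and Nppb, although neighbours, correlated at 0.648 pooled and 0.184 within groups over the same libraries.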
